A study of Mus musculus with 8 samples.

Results

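Pyruvate dehydrogenase is the mitochondrial complex that turns pyruvate into acetyl-CoA, and so decides how much carbon from glucose and lactate enters the citrate cycle. The genes described are its 4 kinases (Pdk1, Pdk2, Pdk3 and Pdk4), its 2 catalytic phosphatases (Pdp1 and Pdp2) and 4 of its subunits (Pdha1, Pdhb, Dlat and Pdhx). They were chosen by name, 10 of the 30153 genes in the deposited table. All 10 passed the filter on low values and are among the 10969 genes tested. The family was assembled with the difference in Pdk4 between the groups already known, so its values in the diet contrast are a description with no p-value, and the 1 count of calls given below supports nothing.

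The study sequenced polyadenylated RNA from heart tissue in 8 libraries. The labels give strain C57/BL6 and Haplotype-II aged for all 8, and by the series title the mice overexpress the human receptor for angiotensin, type 1, so the controls carry it too. Of the 8 libraries, 4 have no further treatment in their label (control) and 4 add western diet, which is high in fat and sugar. Mice without the human gene, or young mice, are not part of either group, and neither promoter of the transgene nor exact age, sex or feeding time was stated in the labels. Whether each library is a separate animal is not stated, so the spread given is that between samples and may be technical in part. The deposited unit is TPM (transcripts per 1000000 transcripts), which is corrected for transcript length, so levels of different genes can be set side by side within a library.

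In heart muscle, fatty acids are the main fuel, and glucose oxidation is held back chiefly at this complex. The kinases phosphorylate its E1 alpha subunit and switch it off, and the phosphatases take the phosphate away and switch it on again. Pdk4 is the kinase gene best known for responding to fasting, fat feeding and diabetes, through receptors of the PPAR family and FOXO factors. Pdk2 is the broadly expressed kinase, Pdk1 is known as a target of the hypoxia factor HIF-1, and Pdk3 is best known from testis.

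The libraries are first set out by transcripts that separate single samples. The Y-linked transcripts Eif2s3y, Ddx3y, Uty and Kdm5d summed to 38.6 to 52.6 TPM in the 4 controls and 41.3 TPM in western diet replicate 4, but to 0.227 to 0.270 TPM in western diet replicates 1, 2 and 3. For those 3 libraries the diet and the lack of Y-linked transcripts cannot be told apart, so values are also given for western diet replicate 4 alone. Of 7 cardiomyocyte markers (Myh6, Myl2, Myl3, Tnnt2, Tnni3, Actc1 and Ryr2), not all of them particular to the ventricle, all 7 were present. Their sum was 45278 to 49600 TPM in controls and 38250 to 47794 TPM with western diet. The 7 did not all move the same way. Tnnt2 was at 7954 to 8164 TPM in controls and 5968 to 8106 TPM with western diet. Actc1 was at 6505 to 7521 TPM in controls and 6548 to 8542 TPM with western diet. Myl7, an atrial marker, passed 100 TPM in 3 libraries (control replicates 1 and 3, western diet replicate 2). Of 4 kidney markers all 4 reached 1 TPM in some library, with a sum of 0 to 0.685 TPM in controls and 10.8, 9.02, 14.2 and 79.0 TPM in western diet replicates 1 to 4, so replicate 4 stands apart in them. Umod, Miox and Slc34a1 were listed at 0 in every control. The part of these transcripts in the results was not tested. In bulk tissue, fewer cells of a type and less RNA per cell cannot be told apart.

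The text turns on one gene that differed, Pdk4, and one that did not separate the groups, Pdk2, so the DNA just before the start of both is shown. Both are from RefSeq's windows on GRCm38.p6, read on the gene's minus strand, 219 bases that end upstream of both the RefSeq and the GENCODE start.
Pdk4, chr6:5496310-5496528: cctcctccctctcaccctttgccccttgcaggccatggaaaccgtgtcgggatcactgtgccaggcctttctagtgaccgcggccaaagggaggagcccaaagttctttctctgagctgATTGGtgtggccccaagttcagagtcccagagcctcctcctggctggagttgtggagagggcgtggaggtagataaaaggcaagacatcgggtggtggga
Pdk2, chr11:95041403-95041621: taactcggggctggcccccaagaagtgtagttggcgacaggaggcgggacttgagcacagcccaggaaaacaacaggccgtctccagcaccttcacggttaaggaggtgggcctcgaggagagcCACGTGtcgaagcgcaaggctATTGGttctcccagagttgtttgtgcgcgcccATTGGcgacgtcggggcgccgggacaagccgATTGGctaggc
Capitals mark matches to 4 motifs searched on both strands: AGGTCA (the half-site of PPAR and other nuclear receptors), GTAAACA (a forkhead core), CACGTG (an E-box) and CCAAT (seen as ATTGG on the other strand). No match overlapped another. Pdk4 held 1 CCAAT box, and Pdk2 held 3 and an E-box. Among 32851 windows of the same length, 12.5% held AGGTCA, 2.80% GTAAACA, 4.97% CACGTG and 30.9% CCAAT. The Pdk4 window held 6 CpG pairs and that of Pdk2 17, against a median of 5. Windows were found for 9 of the 10 genes, Pdp1 being the other, and a missing motif says only that these letters are not in this stretch.

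Pdk4 was the 1 kinase gene whose groups did not overlap. Pdk4 (ENSMUSG00000019577, chromosome 6, 5483351 to 5496309 of GRCm38) was at 45.4, 34.7, 39.5 and 34.2 TPM in control replicates 1 to 4 and at 359, 292, 249 and 148 TPM in western diet replicates 1 to 4. The lowest western diet library, replicate 4, was still above the highest control, and the other 3 lay well above it. The mean level was 262 ± 88.2 TPM with western diet and 38.4 ± 5.24 TPM in control (SD, n = 4 per group), a ratio of 6.81. On the log2(TPM + 1) scale the difference was 2.67 (SE 0.22), the second highest of the 10969 genes tested after the kidney marker Kap (3.83). Eif2s3y, which is Y-linked, differed by more in the other direction (-3.56). By mean TPM, Pdk4 stood at rank 1427 of those genes in control and at rank 288 with western diet.

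Western diet replicate 4 is the library with Y-linked transcripts, as all controls have, and it held 3.86 times the mean Pdk4 level of the controls. The other 3 western diet libraries held 7.80 times that level. With replicate 4 alone against the 4 controls the log2 difference was 1.93 (SE 0.16, where the lone library is assumed to vary like the controls), and without replicate 4 it was 2.92. The spread also differed: the coefficient of variation of Pdk4 was 33.7% with western diet and 13.6% in control, beside medians of 14.2% and 11.9% over all genes tested.

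**Figure D1:**
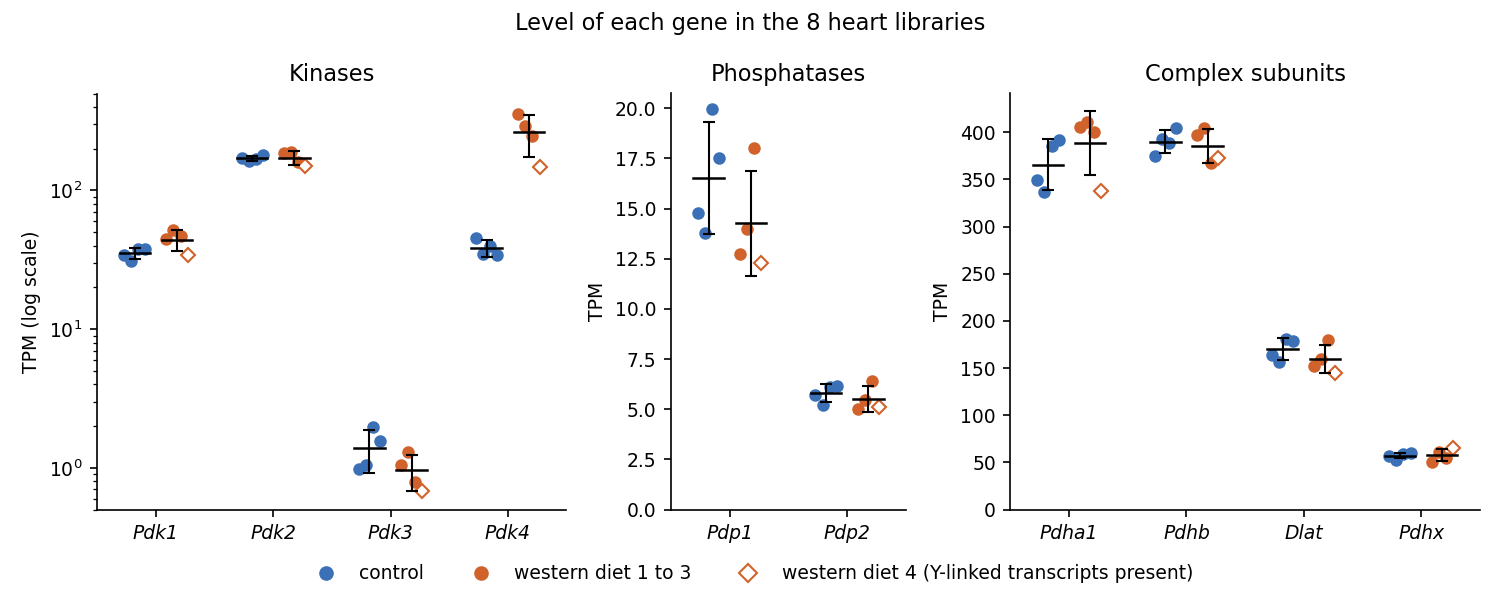
Level in TPM of the 4 kinases (log axis), 2 phosphatases and 4 subunits in each library. Circles are single libraries, the open diamond is western diet replicate 4, and bars give the mean and SD (n = 4); Pdk4 alone has all western diet libraries (148 to 359 TPM) above all controls (34.2 to 45.4 TPM).

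The other kinases overlapped between the groups. Pdk2 (ENSMUSG00000038967, chromosome 11, 95026258 to 95041354), the main kinase transcript of the control hearts, was at 170.4, 164, 169 and 181 TPM in control and at 186, 190.1, 161 and 149.5 TPM with western diet. The western diet libraries lay on both sides of the controls, with means of 172 ± 19.7 and 171 ± 7.36 TPM (log2 difference -0.0026, SE 0.094). Pdk1 (ENSMUSG00000006494, chromosome 2, 71873224 to 71903858) was at 34.3, 31.1, 37.7 and 37.8 TPM in control and at 44.4, 52.0, 46.6 and 34.1 TPM with western diet. Its 3 western diet libraries without Y-linked transcripts were above every control, and replicate 4 was within their range. The log2 difference of Pdk1 was 0.31 (SE 0.13) over all libraries and -0.043 (SE 0.13) for replicate 4 alone.

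Pdk3 (ENSMUSG00000035232, X chromosome, 93764607 to 93832201) was the least abundant kinase, with 0.985, 1.04, 1.98 and 1.57 TPM in control and 1.06, 1.31, 0.792 and 0.680 TPM with western diet. Its highest value was in control replicate 3, and the groups overlapped (log2 difference -0.28, SE 0.16). At levels this low the 1 added to TPM before the log narrows the difference, which was -0.48 with 0.1 added instead. The summed level of Pdk1, Pdk2 and Pdk3 was 208 ± 10.2 TPM in control and 217 ± 26.2 TPM with western diet, with ranges of 196 to 221 and 184 to 243 TPM. The sum of all 4 kinases was 251, 230.3, 248 and 255 TPM in control and 590.1, 535, 457 and 333 TPM with western diet. The ratio of the means of this sum was 1.94.

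The make-up of the kinase pool differed with Pdk4, which made up 18.1%, 15.1%, 15.9% and 13.4% of the summed kinase TPM in control and 60.8%, 54.5%, 54.5% and 44.6% with western diet. Pdk2 made up 69.5% ± 1.77 in control and 36.8% ± 5.74 with western diet, and Pdk1 14.3% ± 0.838 and 9.42% ± 1.28 (SD, n = 4 per group). Pdk3 was under 1% of the pool in every library. As shares add up to 100%, a higher Pdk4 lowers those of the other 3 without any change in their levels.

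**Figure D2:**
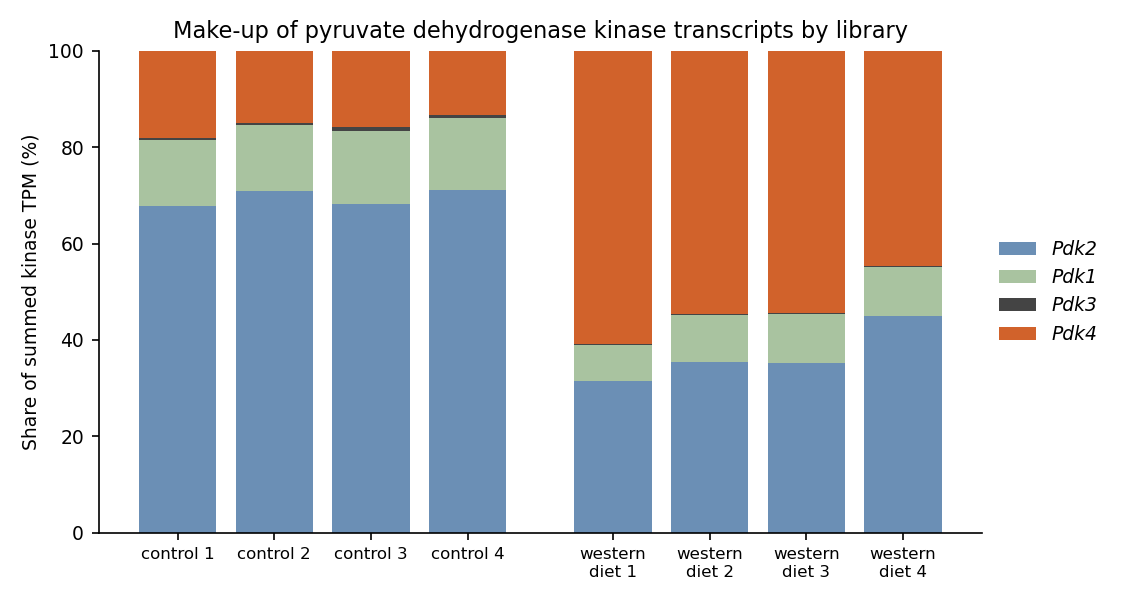
Share of Pdk1, Pdk2, Pdk3 and Pdk4 in the summed kinase TPM (percent, stacked bars) in each of the 8 libraries. Pdk2 fills 67.9% to 71.1% of each control bar, and Pdk4 fills 44.6% to 60.8% of each western diet bar.

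The order of the kinases within a library also differed. Pdk2 was the most abundant kinase in all 4 controls, by a wide margin, while Pdk1 and Pdk4 lay close together: Pdk4 was second in 3 controls and Pdk1 in 1. With western diet Pdk4 was first in 3 libraries. In replicate 4, Pdk2 and Pdk4 were nearly level (149.5 and 148 TPM). The ratio of Pdk4 to Pdk2 was 0.189 to 0.267 in control and 0.992 to 1.93 with western diet.

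Leaving Pdk4 out, the shares of the other kinases were much closer. Pdk2 made up 82.9%, 83.6%, 81.0% and 82.2% of the sum of Pdk1, Pdk2 and Pdk3 in control and 80.3%, 78.1%, 77.2% and 81.1% with western diet, and the groups overlapped. The ratio of Pdk1 to Pdk2 was 0.201, 0.190, 0.223 and 0.209 in control and 0.239, 0.273, 0.290 and 0.228 with western diet. Every western diet value of this ratio was above every control, with replicate 4 nearest to them.

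The phosphatases were scarce beside the kinases. Pdp1 (ENSMUSG00000049225, chromosome 4, 11958184 to 11966452), the calcium-sensitive phosphatase of muscle, was at 14.8, 13.8, 19.98 and 17.5 TPM in control and at 12.8, 14.003, 18.01 and 12.3 TPM with western diet. Pdp2 (ENSMUSG00000048371, chromosome 8, 104591451 to 104599026), which does not need calcium, was at 5.69, 5.23, 6.12 and 6.17 TPM in control and at 5.01, 5.46, 6.42 and 5.13 TPM with western diet. Both overlapped between the groups, with log2 differences of -0.20 (SE 0.14) for Pdp1 and -0.068 (SE 0.11) for Pdp2. Pdp1 was 73.8% ± 1.99 of the phosphatase sum in control and 72.0% ± 1.31 with western diet.

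Set against each other within a library, kinase transcripts outnumbered those of the phosphatases by 12.3, 12.1, 9.52 and 10.7 times in control. With western diet the ratio was 33.2, 27.5, 18.7 and 19.1. The ranges did not overlap, and the lower western diet values were those of replicate 3, which had the most Pdp1 of its group, and replicate 4, which had the least Pdk4. With Pdk4 left out the ratio was 9.41 ± 1.02 in control and 11.2 ± 2.05 with western diet and the groups overlapped (8.01 to 10.3 and 8.51 to 13.02).

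The subunits of the complex itself were among the more abundant transcripts of the heart and overlapped between the groups. E1 is built from the alpha subunit Pdha1, which carries the sites that the kinases phosphorylate, and the beta subunit Pdhb. Pdha1 (ENSMUSG00000031299, X chromosome, 160122209 to 160138413) was at 349, 337, 385 and 392 TPM in control and at 405, 410.5, 400.5 and 338 TPM with western diet. Replicates 1 to 3 of the western diet were above all controls and replicate 4 was near the lowest control, so the split followed the Y-linked transcripts. The part of the X-linked position in this was not tested. Pdhb (ENSMUSG00000021748, chromosome 14, 8165996 to 8173025) was at 375, 393, 388 and 404 TPM in control and at 397, 405, 367 and 373 TPM with western diet, with no such split.

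E2, the acetyltransferase Dlat (ENSMUSG00000000168, chromosome 9, 50634633 to 50659780), forms the core on which the kinases dock. Dlat was at 164, 157, 181 and 179 TPM in control and at 153, 160.1, 179.8 and 145 TPM with western diet. Pdhx (ENSMUSG00000010914, chromosome 2, 103021075 to 103073513), which ties the E3 enzyme to that core, was at 57.0, 53.2, 58.8 and 59.6 TPM in control and at 50.9, 61.3, 55.1 and 65.7 TPM with western diet. The western diet libraries lay on both sides of the controls for Pdhx, and replicate 4, the highest, was the lowest for Dlat. The log2 differences of the 4 subunits lay between -0.097 (Dlat, SE 0.091) and 0.085 (Pdha1, SE 0.093). Their summed level was 983 ± 47.8 TPM in control and 991 ± 49.4 TPM with western diet.

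Subunits were also compared with each other within a library. In control, Dlat was 0.471, 0.465, 0.470 and 0.457 of Pdha1, and with western diet 0.377, 0.390, 0.449 and 0.429. All 4 western diet values were lower, although neither gene separated the groups on its own. Several such ratios, also among the kinases, were looked at, and the share of ratios that would separate by chance was not computed. Pdhb to Pdha1 was 1.07 ± 0.0702 in control and 0.996 ± 0.0778 with western diet, near equal transcript levels of both E1 chains. Pdhx to Dlat was 0.324 to 0.347 in control and 0.307 to 0.453 with western diet. The sum of the kinases per Dlat transcript was 1.37 to 1.53 in control and 2.29 to 3.87 with western diet, and without Pdk4 it was 1.15 to 1.25 and 1.16 to 1.52.

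Of the 10 genes, 1 (Pdk4, higher) passed limma's adjusted p of 0.05 over all genes. Over all genes tested 0.301% passed in either direction, 0.228% as higher and 0.0729% as lower. The groups did not overlap for that same gene, where 6.60% of all genes tested did not overlap (4.85% higher and 1.75% lower), and nothing is read from these counts because the choice of genes used this contrast. The other 9 had log2 differences from -0.28 to 0.31 with a median of -0.018, beside a median of 0.061 over all 10969 genes. Of these 9 log2 differences, 3 were above 0 and 6 below, beside 66.4% above 0 over all genes tested. In western diet replicate 4, 7 of the 10 genes had their lowest western diet value, 6 were below all controls and only Pdk4 and Pdhx were above all of them. The median log2 difference of all genes tested in that library against the controls was -0.069.

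**Figure D3:**
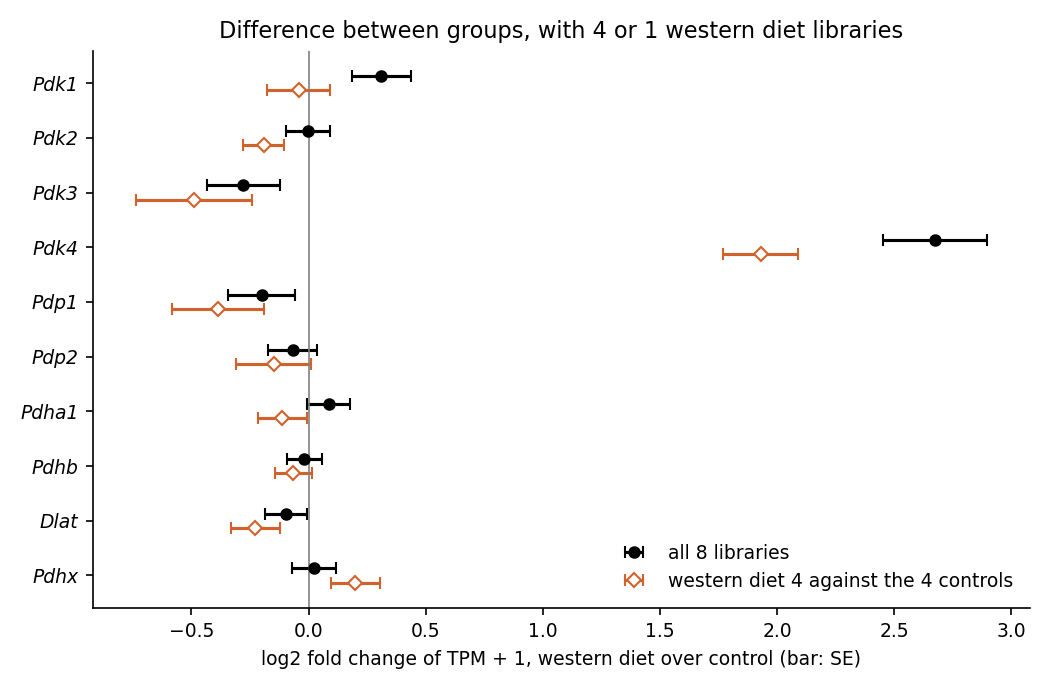
Log2 difference in TPM + 1 (western diet over control, bars SE) for the 10 genes, over all 8 libraries (filled circles) and for western diet replicate 4 against the 4 controls (open diamonds). Pdk4 stands at 2.67 and 1.93, Pdk1 moves from 0.31 to -0.043, and the other 8 stay between -0.49 and 0.20 in both.

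Sequence copies touch 2 of the genes. In the GENCODE transcripts, stretches of at least 300 bases with at least 90% identity were found in other genes for Pdha1 (4930519F09Rik, a transcribed pseudogene with 90.1% identity) and Pdhb (Gm6123, a processed pseudogene with 97.0% identity). Both copies are in the table at no more than 0.127 and 0.266 TPM. Pdha2, the testis form of E1 alpha, was listed at 0 in 7 of 8 libraries and at 0.0192 TPM in control replicate 3.

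Around the complex, 10 lists of genes that are no members (115 genes, 107 tested) were read from the same fit. Dld, the E3 enzyme shared with sister complexes, was at 156 ± 8.48 TPM in control and 144 ± 7.25 TPM with western diet (limma adjusted p = 0.609). Pdpr, the regulatory subunit of the phosphatase, was at 13.96 ± 3.73 and 15.1 ± 2.96 TPM (limma adjusted p = 0.851). Mpc1 and Mpc2 form the carrier that brings pyruvate into mitochondria. Mpc1 was at 604 ± 20.1 TPM in control and 554 ± 42.8 TPM with western diet, and Mpc2 at 404 ± 13.1 and 371 ± 26.6 TPM, and both overlapped between the groups (limma adjusted p = 0.601 and 0.590).

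In 9 of the 10 lists no gene passed limma's adjusted p of 0.05, of 83 tested. At an unadjusted p under 0.05, 10 of the 83 were higher and 4 lower, beside 9.20% and 2.51% of all genes tested. Of 12 genes of pyruvate supply and use, Me1, the cytosolic malic enzyme, came nearest, with 70.1 ± 5.56 TPM on western diet and 51.6 ± 4.54 TPM in control (limma adjusted p = 0.0823). Of 13 genes that build or attach lipoate, the cofactor of E2, Iba57, an iron-sulfur assembly factor, had 8.22 ± 0.944 TPM with western diet and 5.43 ± 0.206 TPM in control (limma adjusted p = 0.0696), and Isca1, another such factor, at 149 ± 10.1 against 136 ± 6.06 TPM. Of 15 glucose entry genes, Pfkl, the liver-type phosphofructokinase, had 43.4 ± 5.06 TPM with western diet and 31.1 ± 1.71 TPM in control (limma adjusted p = 0.0811). Hk2, the insulin-responsive hexokinase, had 59.7 ± 3.46 TPM with western diet and 70.4 ± 4.83 TPM in control (limma adjusted p = 0.303).

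Cofactor transport, the sister complexes and deacylases were read next. The thiamine transporter Slc19a2 (2.23 ± 0.214 against 2.22 ± 0.290 TPM) overlapped between the groups. Of 8 genes of the sister dehydrogenases, 7 had a log2 difference below 0, with a median of -0.085. Over all genes tested 66.4% were above 0, with a median of 0.061. In western diet replicate 4 alone, 0 of the 8 were above the control mean, beside 35.8% of all genes tested. Of the 8, Bckdhb of the branched-chain complex was at 33.0 ± 5.12 against 38.5 ± 1.90 TPM. Ppm1k, the phosphatase of that complex, was at 17.0 ± 1.66 against 20.6 ± 3.19 TPM. The mitochondrial deacylases Sirt3 (32.6 ± 2.82 against 33.2 ± 1.90 TPM) and Sirt4 (7.46 ± 0.812 against 9.67 ± 1.30 TPM, limma adjusted p = 0.293) did not pass either.

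Of 10 genes for the fates of acetyl-CoA, 8 had a log2 difference above 0, with a median of 0.17, beside 66.4% and 0.061 over all genes tested. In western diet replicate 4 alone, 7 of the 10 were above the control mean, beside 35.8% of all genes tested. Slc25a20, which carries acylcarnitines into mitochondria, had 139.5 ± 21.8 TPM with western diet and 107 ± 5.38 TPM in control (limma adjusted p = 0.221).

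Regulators known to act on Pdk4 were compared as transcripts only. Of 19 tested, 17 had a log2 difference above 0 (66.4% of all genes tested did), with a median of 0.20. In western diet replicate 4 alone, 9 of the 19 were above the control mean, beside 35.8% of all genes tested. None passed limma's adjusted p of 0.05, and 1 was higher at an unadjusted p under 0.05. Esrrg, an orphan nuclear receptor, had 9.11 ± 1.03 TPM with western diet and 7.27 ± 1.44 TPM in control (limma adjusted p = 0.422), and Rxrb, a partner of the PPARs, at 18.8 ± 2.34 against 15.9 ± 1.07 TPM (limma adjusted p = 0.437). Ppara itself, named after its values were seen, was at 6.87, 5.13, 10.9 and 12.2 TPM in control and 10.7, 15.1, 11.4 and 7.90 TPM with western diet. Its groups overlapped (limma adjusted p = 0.606).

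Among 24 other targets of the PPARs, all 24 had a log2 difference above 0, with a median of 0.26, beside 66.4% and 0.061 over all genes tested. In western diet replicate 4 alone, 15 of the 24 were above the control mean, with a median of 0.099, beside 35.8% and -0.069 over all genes tested. Over all libraries, 14 of the 24 were higher and 0 lower at limma's unadjusted p under 0.05, beside 9.20% and 2.51% of all genes tested. In the same fit, 2 of the 24 rose past limma's adjusted p of 0.05 and 22 did not pass. The 2 were Ucp3, an uncoupling protein (34.9 ± 11.1 against 11.05 ± 0.562 TPM, limma adjusted p = 0.0169), and the lipid droplet protein Plin2 (67.9 ± 5.64 TPM with western diet and 43.6 ± 3.35 TPM in control, with the same adjusted p). With replicate 4 as the 1 western diet library, the log2 difference of Ucp3 was 0.73, and over all libraries it was 1.51. That of Plin2 was 0.48 with replicate 4 alone and 0.63 over all libraries. These targets share the control samples with Pdk4, so their values stand side by side and support nothing about it.

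**Figure D4:**
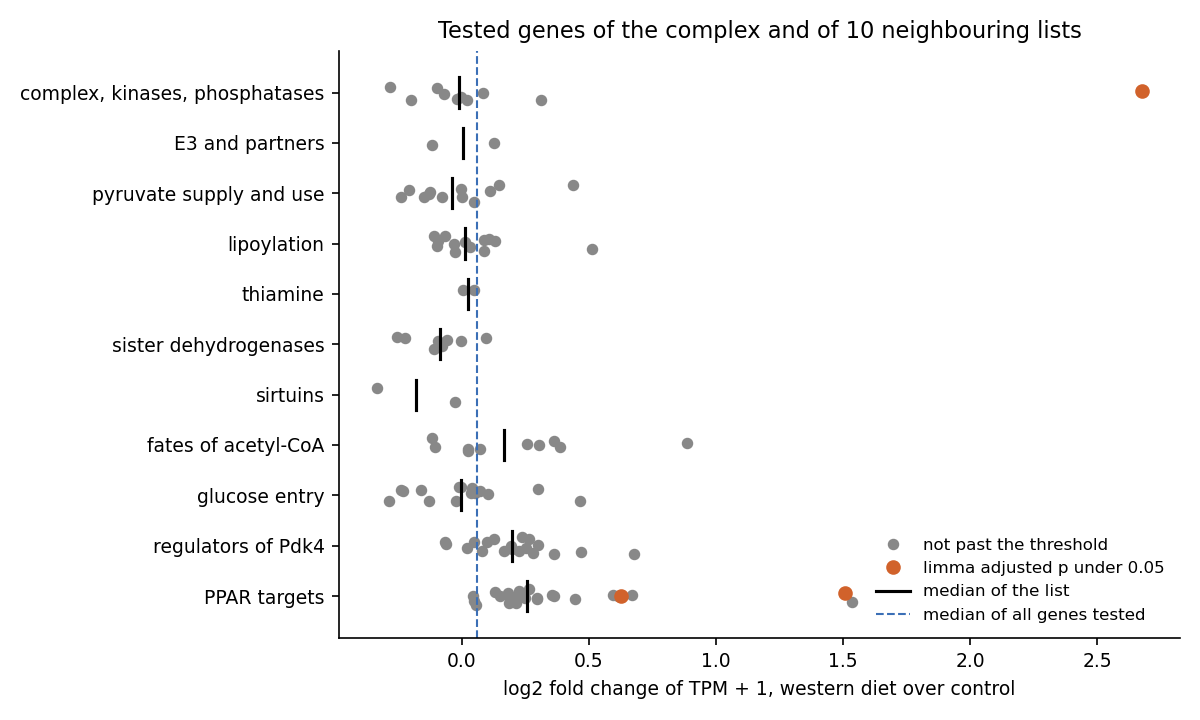
Log2 difference in TPM + 1 (western diet over control) of each tested gene of the complex, its kinases and phosphatases (top row) and of 10 neighbouring lists. Black bars are list medians, the dashed line is the median of all genes tested (0.061), and orange points passed limma's adjusted p of 0.05; they are Pdk4, Ucp3 and Plin2.

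Likeness to Pdk4 was measured as the mean absolute difference over the 8 libraries between log2(TPM + 1) of a gene and of Pdk4, each relative to its own control mean. Over the 10968 other genes the median of this distance was 1.39. Genes without a symbol, or with a Gm-number, Rik or -ps symbol, were then left out, which kept 10468. The 5 nearest of those kept were Napsa (0.50), Cdkn1a (0.58), Ucp3 (0.66), Angptl4 (0.67) and Acta1 (0.67). Napsa, a lysosomal aspartic protease, was at 3.69, 3.02, 3.87 and 3.80 TPM with western diet and no more than 0.445 TPM in control. That is a flat level across the diet libraries, where Pdk4 was not flat. Napsa passed the filter on low values only through the western diet libraries. Its distance also depends on the 1 added to TPM before the log. The log2 difference was 1.79 on that scale, while the ratio of the mean TPM was 10.8. Cdkn1a, the cell cycle inhibitor p21, was at 56.7, 36.5, 12.5 and 12.5 TPM with western diet and 5.63 to 8.12 TPM in control. Replicate 1 had the most Cdkn1a and the most Pdk4.

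Ucp3 was at 43.7, 36.4, 40.4 and 18.9 TPM with western diet and 10.4 to 11.7 TPM in control, and like Pdk4 was lowest in replicate 4 of its group. Angptl4, an inhibitor of lipoprotein lipase, was at 5.40, 5.84, 15.5 and 6.94 TPM with western diet and 1.09 to 3.32 TPM in control. Acta1, skeletal alpha-actin, was at 137, 448, 324 and 370.1 TPM with western diet and 70.3 to 126 TPM in control, and was lowest in replicate 1, where Pdk4 was highest. Such a distance mainly finds genes with a large difference between the same groups, and Cdkn1a, Angptl4 and Acta1 did not pass limma's adjusted p of 0.05 (0.116, 0.0630 and 0.0744).

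**Figure D5:**
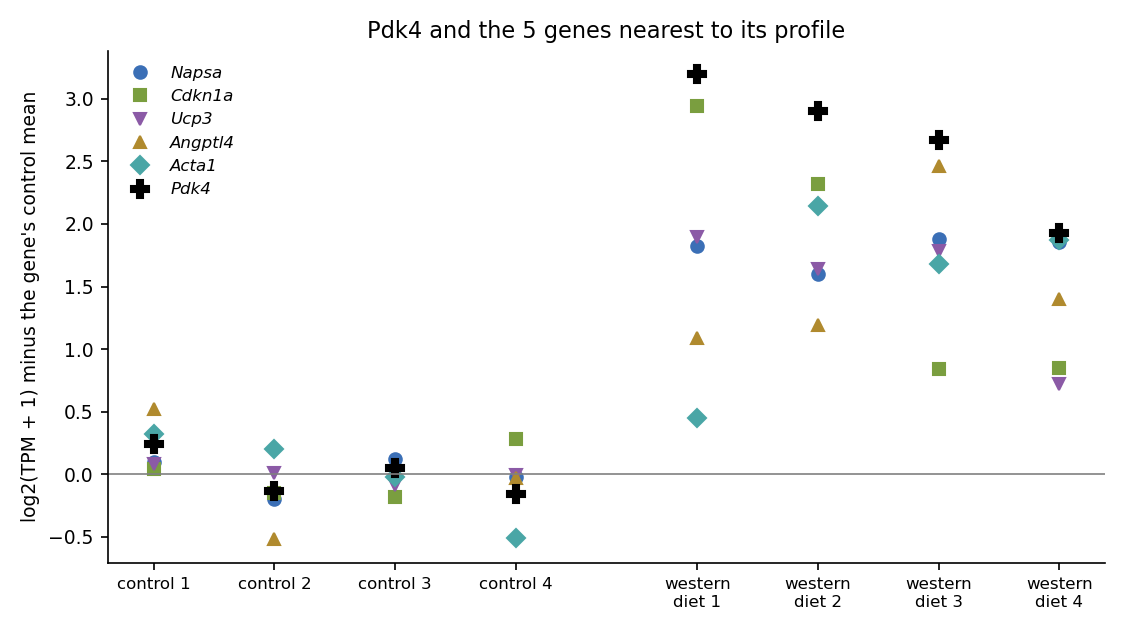
Log2(TPM + 1) minus the gene's control mean in each library for Pdk4 (large crosses) and the 5 genes nearest to it, Gm-number, Rik and -ps symbols left out. Pdk4 stands at 3.20, 2.90, 2.67 and 1.93 in western diet replicates 1 to 4, above the 5 other genes in each of them.

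Markers of other cell types are given beside Pdk4. The 4 macrophage markers, all present, summed to 49.9 to 60.9 TPM in control and 61.1 to 99.3 TPM with western diet, highest in replicate 1. Of these, C1qa did not overlap (35.4 to 41.7 and 43.2 to 75.9 TPM), while Cd68, Adgre1 and Csf1r did. The 5 smooth muscle and pericyte markers, all present, summed to 179.9 to 211 TPM in control and 201 to 275 TPM with western diet. Of these, Acta2 was higher in every western diet library (26.3 to 39.2 and 47.9 to 117 TPM), and Tagln (16.2 to 21.1 and 7.92 to 10.9 TPM) and Pdgfrb (13.6 to 15.8 and 10.1 to 12.1 TPM) were lower in every one. Of 3 red cell markers, all present, the sum was 1598 to 2963 TPM in control and 1301 to 9056 TPM with western diet, with overlap, and again highest in replicate 1. The 2 neutrophil markers, both present, summed to 3.69 to 6.89 TPM in control and 7.85 to 15.5 TPM with western diet. Their part in the level of Pdk4 was not tested. The 5 skeletal muscle markers summed to 2.78 to 3.95 TPM in control and 1.61 to 3.68 TPM with western diet, with overlap. Tnni2 reached 3.15 TPM and Mylpf 1.42 TPM, and Myh4, Myh1 and Mybpc1 stayed under 1 TPM. The 5 adipocyte markers summed to 38.9 TPM in control replicate 3 and to 0.791 to 2.498 TPM in the other 7 libraries. Without the 3 libraries with atrial transcripts, which include that one, the log2 difference of Pdk4 was 2.75.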

How the data were processed

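Heart RNA was measured in 8 libraries from a polyadenylated mRNA pull-down. The deposited values are TPM per Ensembl gene, made by the authors; per the submitters' processing notes the tools include kallisto and DESeq2 and the build is GRCm38, with no version or role given. TPM keeps no depth, so no counting interval was computed. Library sums were 941318 to 953448 TPM over the genes listed. Symbols were matched for 29732 of 30153 genes, with coordinates from GENCODE vM21 on GRCm38.

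The 10969 genes that reached 1 TPM in 4 or more libraries were tested on log2(TPM + 1) by limma 3.58.1 (R 4.3.3) with Benjamini-Hochberg adjustment, which called 33 genes (25 higher, 8 lower). On 5 simulated tables with 200 changed genes, 90.6% of 2-fold and 99.2% of 4-fold changes were recovered, with 5.37% of calls false. The simulated noise was independent between genes and libraries. It held no differences shared by many genes, such as those that go with Y-linked, kidney or atrial transcripts. These rates therefore need not hold for the real libraries. Values were summarised with Python 3.11.15 and pandas 2.3.3, and plotted with matplotlib 3.10.9. Transcripts were compared with BLAST 2.17.0. Promoter windows are from RefSeq. Libraries were grouped by the diet label. The members and the lists were chosen with earlier results of these data known. Named genes are the members, Dld, Pdpr, Mpc1 and Mpc2, the called genes of each list or else its 2 of smallest p, and the 5 nearest to Pdk4; 2 genes that this rule names are not reported here. Alternatives changed the pseudocount, filter, scaling and libraries.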

Additional observations from a re-analysis of the deposited data

Results flagged for a closer look

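Pdha1 in western diet replicate 4 was at 338 TPM, while replicates 1 to 3 of that group held 400.5 to 410.5 TPM. Its gap to the nearest of them, divided by the range of the group, was 0.863, above the critical value of Dixon's test for 4 samples. Among 66 groups of 4 values checked, this was the 1 that passed, and chance alone passes about 1 in 20. This library is the 1 western diet library with Y-linked transcripts, and Pdha1 lies on the X chromosome. Pdk1, on chromosome 2, was also above all controls in replicates 1 to 3 and within their range in replicate 4. Pdk3, on the X chromosome, had no such split. Replicate 4 also had the most kidney marker TPM (79.0) and the lowest western diet value for 7 of the 10 genes. The part of each of these was not tested.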

How the results depend on the processing

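No paired analysis was possible because the labels give no replicate numbers and the numbers used here follow accession order. The log2 difference of Pdk4 (2.67), on which the family was chosen, was 1.93 with a term for Y-linked transcripts. It was also 1.93 with only the libraries that hold them, and 2.50 to 2.92 otherwise. That is also its range when a replicate was left out. Both Y-linked settings give the same differences by construction, because every library without Y-linked transcripts is a western diet library. They rest on western diet replicate 4 alone against the controls. Of the other members, Pdp1, Pdp2 and Dlat kept their sign under all 19 alternatives, and Pdk3 under all 18 that included it. Pdhb kept its sign under 18, Pdk1 and Pdha1 under 17, Pdk2 under 16 and Pdhx under 14. Pdk1 (-0.043) and Pdha1 (-0.11) were below 0 in both Y-linked settings, which are counted separately among the 19. The 33 genes called over the table became 5 with no filter, 15 with a mean of at least 5 TPM, 61 with quantile normalization, 54 with the Y-linked term, 76 with only Y-positive libraries and 5 without the 3 atrial libraries. Leaving out a replicate gave 8 (without control replicate 4) to 95 (without western diet replicate 4). Higher genes were 75.8% of calls, but 63.3% with median-of-ratios scaling and 65.6% with quantile normalization. The median log2 difference of all genes was 0.061 over all libraries. With the Y-linked term, and so for western diet replicate 4 against the controls, it was -0.069. The 2 calls in the neighbouring lists became 4 with median-of-ratios scaling, 6 with quantile normalization and 6 without mitochondrially encoded transcripts, and 0 with no filter, with the Y-linked term, with only Y-positive libraries and without the atrial libraries, with 0 to 9 when a replicate was left out. With only Y-positive libraries the Pdk4 share difference was 29.0 percentage points (38.0 over all), the kinase sum difference 86.4 TPM (232), the difference in the kinase to phosphatase ratio 7.95 (13.5), and the Pdk2 share difference within Pdk1, Pdk2 and Pdk3 -1.25 points (-3.20). Without mitochondrially encoded transcripts the kinase sum difference was 352 TPM, as the remaining TPM are rescaled. The causes of the other changes were not tested.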
